A study of Homo sapiens with 15 samples.

Results

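Upstream antisense RNA is transcribed away from a gene, from the strand opposite to it, starting just before the gene's own start. Many mammalian promoters fire in both directions. The antisense product, also called a promoter upstream transcript, is known to be short, capped and quickly degraded by the nuclear exosome, while the sense product is extended into the gene. PAR-CLIP can show such RNA while it is held by a protein: cells take up a photoreactive nucleoside, light at 365 nm crosslinks RNA to protein, and stretches of reads around crosslinked bases are called as clusters.

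The antisense clusters described here were chosen by position. A Region is the span of a gene in the deposited ChIP table, and 7925 of its 14432 Regions were 20000 bases or longer. Of these, 5543 held at least 5 RNAPII 4SU clusters, and each was given the strand with more summed RNAPII 4SU coverage inside it. Clusters on the other strand, 0 to 2000 bases before the start of the Region and outside every other Region, were taken as upstream antisense. RNAPII 4SU coverage inside the gene thus chose the promoters and their strand, so values of that library on the sense strand are given as a description. The rule gave 1070 and 964 clusters in PHC1 replicates 1 and 2, of 696186 and 698056 called in all. It gave 3343 clusters in the RNAPII 4SU library and 253 in the RNAPII 6SG library, of 667937 and 45259. In any of the 4 libraries 2021 promoters had at least 1 such cluster and 3522 had none.

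PHC1 is a subunit of Polycomb repressive complex 1 (PRC1), and RNA polymerase II (RNAPII) makes the RNA in question. All 4 PAR-CLIP libraries were made from 1 human embryonic kidney line, HEK293T T-Rex. Both PHC1 libraries were made with 4-thiouridine (4SU) from cells that carry a PHC1 transgene, pulled down with streptavidin beads and grown with hygromycin. The RNAPII libraries came from cells without a transgene, pulled down with an antibody to the polymerase's C-terminal domain according to the reagent label (the extraction text of these libraries names streptavidin beads too), 1 with 4SU and 1 with 6-thioguanosine (6SG), each nucleoside at 100 uM. The protein, the transgene and the pulldown reagent therefore differ together and cannot be told apart. The series also holds 2 nuclear RNA libraries and 9 ChIP libraries from the same line, 15 samples in all. Nothing in the labels says that replicates were separate cultures, so a p-value here reflects no more than the spread among libraries, which may be technical.

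Summed coverage over all clusters was 1134 and 854 Mb in PHC1 replicates 1 and 2, against 1132 Mb in RNAPII 4SU and 112 Mb in RNAPII 6SG. The 10 clusters of most summed coverage held 22.6% of it in PHC1 replicate 1 and 3.72% in replicate 2. They held 4.07% in 4SU and 10.5% in 6SG. Nuclear RNA held 47187882 and 49626658 counted reads, with the kidney line's known neurofilament gene NEFL at 141 and 142 CPM, the per-million share of the library's reads. The 8 markers of liver, blood, keratinocytes and fibroblasts were at or below 1.55 CPM. Of 5 markers listed for the line, NEFM and ELAVL3 stayed under 1 CPM. Among the 4507 promoters with a strand in RefSeq, the strand read from RNAPII was the same in 4284 (95.1%) and the opposite in 223. The shortest Region taken was 20008 bases and the longest one left out with enough clusters was 19976 bases. At the other limit, 132 Regions had exactly 5 RNAPII 4SU clusters and 135 long ones had exactly 4.

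The 4 promoters below are shown because they were among the 8 with the highest antisense coverage found in both PHC1 libraries and RNAPII 4SU at once (SACM1L, ZC3H3, ZNF461 and NCOA7 complete the 8). Each line runs 5′ to 3′ on the gene's strand, from RefSeq on GRCh38.p14. Lower case marks the 250 bases before the annotated start, and capitals mark the first 50 bases of the gene. The largest antisense clusters of these promoters were centred farther out, between 296 and 1893 bases before the Region's start. POLDIP3 lies at chr22:42614834-42615133 (minus strand) and SLC3A2 at chr11:62881449-62881748 (plus strand). MED16 lies at chr19:893138-893437 (minus strand) and PBRM1 at chr3:52685864-52686163 (minus strand).
POLDIP3: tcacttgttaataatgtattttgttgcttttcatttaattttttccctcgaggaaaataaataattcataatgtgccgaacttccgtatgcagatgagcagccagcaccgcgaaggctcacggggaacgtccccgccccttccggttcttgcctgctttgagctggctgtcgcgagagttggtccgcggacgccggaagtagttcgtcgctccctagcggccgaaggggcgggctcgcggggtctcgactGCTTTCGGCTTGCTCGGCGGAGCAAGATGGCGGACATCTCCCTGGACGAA
SLC3A2: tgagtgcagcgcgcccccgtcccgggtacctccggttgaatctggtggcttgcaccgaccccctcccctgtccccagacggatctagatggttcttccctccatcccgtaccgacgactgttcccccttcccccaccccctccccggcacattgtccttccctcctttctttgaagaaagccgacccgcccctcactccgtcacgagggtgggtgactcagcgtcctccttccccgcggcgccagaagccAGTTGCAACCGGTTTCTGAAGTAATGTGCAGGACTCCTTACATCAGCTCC
MED16: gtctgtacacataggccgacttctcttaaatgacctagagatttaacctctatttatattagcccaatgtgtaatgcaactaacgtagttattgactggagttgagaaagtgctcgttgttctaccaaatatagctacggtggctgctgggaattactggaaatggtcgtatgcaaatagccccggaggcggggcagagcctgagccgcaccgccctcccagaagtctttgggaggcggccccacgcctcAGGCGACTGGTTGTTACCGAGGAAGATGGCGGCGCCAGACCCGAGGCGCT
PBRM1: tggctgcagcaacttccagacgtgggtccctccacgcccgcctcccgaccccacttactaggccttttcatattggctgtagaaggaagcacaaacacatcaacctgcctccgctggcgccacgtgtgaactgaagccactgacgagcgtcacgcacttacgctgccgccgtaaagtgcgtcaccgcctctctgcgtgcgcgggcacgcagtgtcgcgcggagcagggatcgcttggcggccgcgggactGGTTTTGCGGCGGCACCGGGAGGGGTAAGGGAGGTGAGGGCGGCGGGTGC

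These 4 promoters had 55.3%, 62.7%, 52.7% and 65.3% G and C, in the order printed, with between 17 and 31 CG dinucleotides each. The POLDIP3 window holds AATAAA, the letters of the polyadenylation signal, once on the sense strand, and the other 3 windows hold it on no strand. PBRM1 holds GGTAAG, the letters of a strong 5′ splice site, once on the sense strand. MED16 holds TATAAA, the letters of the TATA box, once on the antisense strand.

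RNAPII antisense clusters sat close to the start, and PHC1 antisense clusters did not. In the first 400 bases upstream PHC1 had 172 and 127 antisense clusters, or 82.7 and 61.0 per Mb searched. In the same bases RNAPII had 1940 with 4SU (932.5 per Mb) and 144 with 6SG (69.2 per Mb). Far upstream, at 5000 to 10000 bases, the density was 115.4 and 117.1 per Mb for PHC1, against 92.2 for 4SU and 8.15 for 6SG. The density near the start over that far upstream was therefore 0.716 and 0.521 in the PHC1 libraries, and 10.1 and 8.49 in the RNAPII libraries. Both PHC1 libraries were below 1 and both RNAPII libraries were above 8, with no overlap. The means were 0.619 ± 0.138 for PHC1 and 9.30 ± 1.15 for RNAPII (SD, n = 2 each; two-sided exact permutation p = 0.3333, the smallest that 2 libraries against 2 can give).

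The PHC1 densities were lowest right at the start. In the first 200 bases they were 59.1 and 31.9 per Mb, and from 200 to 400 bases they were 107.5 and 91.7 per Mb. From 400 bases outward both replicates stayed between 93.4 and 137.2 per Mb within the 2000-base window. RNAPII 4SU ran the other way, with 968.8 per Mb in the first 200 bases, 385.5 at 400 to 600 bases and 103.1 at 1800 to 2000 bases. The median distance of an antisense cluster from the start was 1047.5 and 1108.5 bases for PHC1, against 316.5 for 4SU and 342.5 for 6SG.

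**Figure D1:**
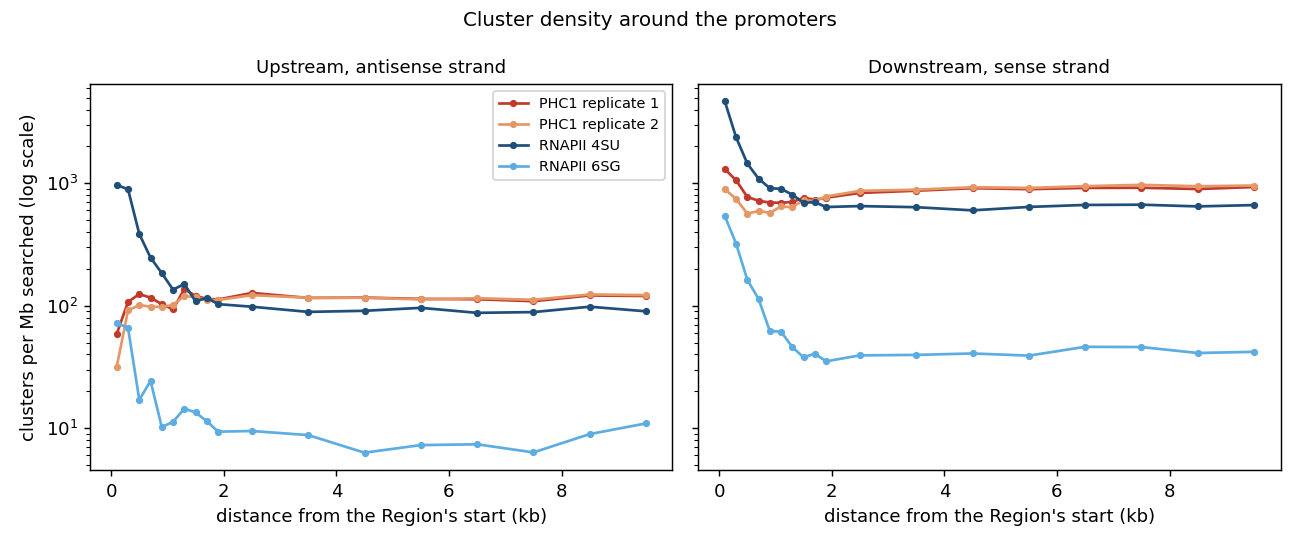
Clusters per Mb searched (log scale) by distance from the start of the Region in kb, upstream on the antisense strand (left) and downstream on the sense strand (right), 1 line per library over 5543 promoters. On the left both PHC1 lines dip at the start while both RNAPII lines peak there, and 4SU falls to the PHC1 level at 1400 to 1600 bases.

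RNAPII clusters were also denser near the start on the other strand and inside the gene. The PHC1 ratio was below 1 in both replicates on the antisense strand, and in replicate 2 on the sense strand too. On the sense strand downstream of the start, the density in the first 400 bases over that at 5000 to 10000 bases was 1.30 and 0.865 for PHC1, against 5.37 for 4SU and 10.1 for 6SG. On the sense strand upstream it was 1.01 and 0.701 for PHC1, against 3.41 and 5.04 for RNAPII. Antisense to the gene downstream it was 0.701 and 0.542 for PHC1, against 9.74 and 6.07 for RNAPII. In each of these the groups of 2 libraries did not overlap (exact permutation p = 0.3333). The PHC1 replicates lay on either side of 1 on both sense parts.

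**Figure D2:**
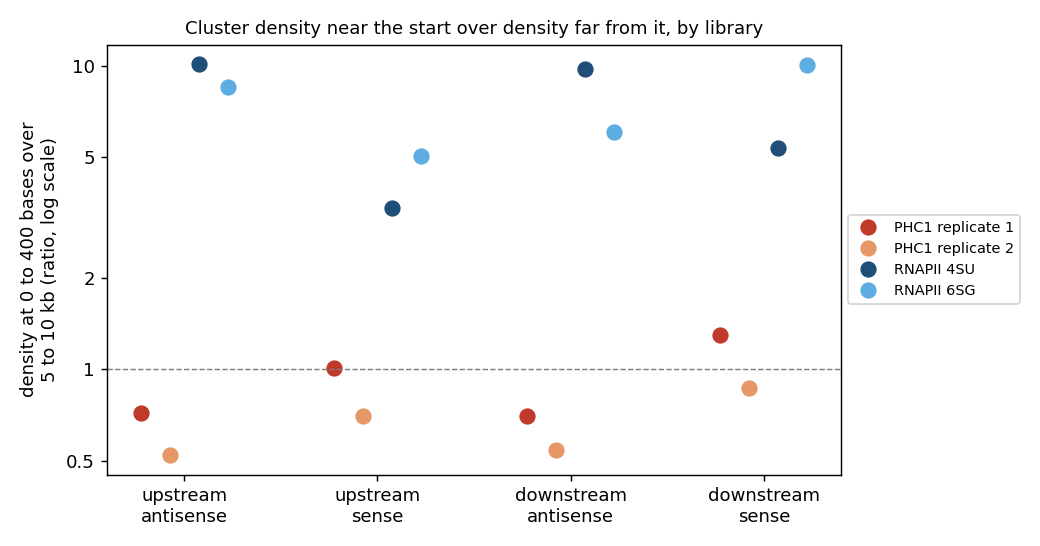
Cluster density in the first 400 bases from the start divided by that at 5000 to 10000 bases (ratio, log scale), 1 point per library, for each side and strand. The dashed line marks a ratio of 1; on all 4 sides the PHC1 points lie between 0.521 and 1.30 and the RNAPII points between 3.41 and 10.1.

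The antisense ratio stayed below 1 for PHC1 and above 8 for RNAPII in each of the following subsets. In the top quintile of promoters by RNAPII ChIP score (1109 promoters), the density near the start over that far upstream was 0.707 and 0.602 for PHC1, against 12.8 for 4SU and 11.6 for 6SG. In another subset, promoters found to have an annotated neighbour on the opposite strand outside the Regions were left out. Neighbours were looked up for only 4284 promoters, so the 4765 that remained include some never checked. Among these 4765 the ratio was 0.766 and 0.547 for PHC1, against 13.1 and 10.4 for RNAPII. Among the 4284 promoters whose read strand equalled the annotated one, it was 0.653 and 0.508 for PHC1, against 10.3 and 8.30 for RNAPII. For clusters of mean coverage 20 or more, it was 0.738 and 0.508, against 8.75 and 8.17.

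By promoter, PHC1 antisense clusters were found at 578 (10.4%, 95% Wilson interval 9.65 to 11.3%) and 554 (9.99%, 9.23 to 10.8%) of the 5543. RNAPII 4SU had them at 1717 (31.0%, 29.8 to 32.2%) and 6SG at 229 (4.13%, 3.64 to 4.69%). The intervals cover counting error only, and summed cluster coverage was lowest for 6SG. Sequencing depth is unknown, and its part in these shares was not tested. Within 500 bases of the start the shares were 3.21% and 2.44% for PHC1, against 26.2% for 4SU and 2.71% for 6SG. Most promoters had a single antisense cluster: 363 and 381 for PHC1, 965 for 4SU and 211 for 6SG. The most at one promoter were 10 and 14 for PHC1, against 18 for 4SU and 4 for 6SG.

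The antisense part of all promoter-proximal clusters was smaller for PHC1 by number, while by summed coverage the order depended on the window. Within 500 bases on either side, antisense clusters made up 7.08% (6.25 to 8.01%) and 7.74% (6.72 to 8.90%) of antisense and sense clusters together for PHC1. They made up 19.9% (19.2 to 20.7%) for 4SU and 12.8% (11.1 to 14.8%) for 6SG. The difference of the means was -8.96 percentage points (exact permutation p = 0.3333). Within 2000 bases the shares by number were 10.5% and 11.2% for PHC1, against 17.4% and 13.8% for RNAPII. By summed coverage within 2000 bases they were 11.7% and 12.8% for PHC1, against 15.7% for 4SU and 9.27% for 6SG, so that the PHC1 values lay between the RNAPII values (difference -0.217 points, exact permutation p = 1). By summed coverage within 500 bases the PHC1 shares were 13.6% and 18.3%, against 15.7% and 6.37%. By summed coverage within 5000 bases both PHC1 shares were 10.1%, below the 14.8% of 4SU and the 10.7% of 6SG (difference -2.69 points, exact permutation p = 0.3333). The share of the single cluster with the most summed coverage was also taken within 500 bases. It was 35.4% and 28.4% of all antisense coverage in the PHC1 replicates, against 10.4% in 4SU and 3.06% in 6SG. In all but 6SG that cluster lay at POLDIP3. Without the deepest 1% of clusters the 500-base shares by coverage were 6.69% and 8.89% for PHC1, against 12.8% and 6.90% for RNAPII.

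Few promoters with a 4SU antisense cluster also had one in PHC1, though the share was above that of all eligible promoters. Of the 1450 promoters with a 4SU antisense cluster within 500 bases, 125 (8.62%) also had one in PHC1 replicate 1, 102 (7.03%) in replicate 2 and 84 (5.79%) in both. On the sense strand, where 3802 promoters had a 4SU cluster within 500 bases, the shares were 43.8%, 33.8% and 29.8%. RNAPII 6SG, the library with the least cluster coverage, also met 8.21% on the antisense and 22.5% on the sense side. Read the other way, 70.2% and 75.6% of the PHC1 antisense promoters within 500 bases had a 4SU antisense cluster, as did 79.3% of the 6SG ones. On the sense strand these shares were 93.9%, 94.3% and 94.1%. A 4SU cluster within 500 bases was found at 26.2% of all promoters on the antisense and at 68.6% on the sense side.

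Within 2000 bases, 299 promoters had antisense clusters in both PHC1 libraries and in 4SU, and 78 had them in all 4 libraries. A further 94 had them in both PHC1 libraries and not in 4SU, while 1250 had them in 4SU and in neither PHC1 library. PHC1 clusters recurred at the same bases between replicates: 55.7% of replicate 1 and 63.0% of replicate 2 antisense clusters overlapped one of the other replicate by a base or more. Of the same clusters 30.8% and 30.0% overlapped a 4SU cluster, and 10.9% and 9.12% of the 4SU clusters overlapped one of PHC1 replicates 1 and 2. Of the 6SG clusters 47.4% overlapped a 4SU cluster. For PHC1 antisense clusters within 500 bases the shares lay closer together, mainly in replicate 1. There 53.0% and 72.6% overlapped one of the other replicate, and 47.9% and 54.2% overlapped a 4SU cluster. In the 393 promoters with antisense clusters within 2000 bases in both PHC1 replicates, summed coverage correlated between them at a Spearman rho of 0.761. Against 4SU rho was 0.415 (385 promoters) and 0.290 (381 promoters). These are descriptions across promoters, which are not replicates. Antisense and sense coverage of a promoter were nearly unrelated within a library, at rho 0.046 and -0.003 for PHC1 and 0.104 for 4SU.

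Where a library had an antisense cluster within 2000 bases, it had others farther out more often than elsewhere, in PHC1 and RNAPII alike. Of PHC1 promoters with one within 2000 bases, 44.6% and 47.3% had another at 2000 to 5000 bases, against 20.6% of the 4SU and 8.30% of the 6SG promoters. Among promoters with none within 2000 bases these shares were 8.96% and 9.00% for PHC1, against 3.42% and 1.60% for RNAPII. At 5000 to 10000 bases 44.8% and 42.8% of the PHC1 promoters still had one, against 19.5% of 4SU and 11.8% of 6SG promoters. Among promoters with none within 2000 bases, 12.3% and 11.7% had one there for PHC1, against 6.12% for 4SU and 2.18% for 6SG.

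Annotated neighbours outside the Regions were unevenly spread over these groups of promoters. In RefSeq gene order on GRCh38.p14, used for names and order alone, the nearest upstream gene was on the opposite strand and had no Region at 41.6% of promoters with antisense clusters in both PHC1 libraries and 4SU (238 with a neighbour). It was 15.9% where both PHC1 libraries had clusters and 4SU had none (69 with a neighbour). The share was 35.8% for both PHC1 libraries and 27.7% for 4SU, against 13.2% for promoters with no antisense cluster and 18.2% for all 4284. It was 31.9% for either PHC1 library and 34.3% for 6SG. Genes whose symbol ends in DT, the name given to divergent transcripts, were the neighbour at 5.54% of the PHC1 and 6.50% of the 4SU promoters, against 3.79% of those with none. Small RNA genes were the neighbour at 7.17% of promoters with clusters in both PHC1 libraries and at 10.1% of those that 4SU lacked. They were the neighbour at 2.67% of 4SU and 5.06% of 6SG promoters, against 1.87% of those with none. For promoters with clusters in either PHC1 library the share was 4.69%, between those of 4SU and 6SG. The distance to the neighbour was not used, and whether the clusters belong to it was not tested.

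Promoters with more polymerase by ChIP had antisense clusters more often, in RNAPII and in PHC1 libraries alike, with wider differences for 4SU. The ChIP scores are the authors' input-subtracted values, 1 library per target, or 2 joined for PHC1 and for PHC1 dFCS. Over the 4776 promoters whose 2000 upstream bases were all outside other Regions, 5.02%, 20.5%, 35.6%, 44.9% and 65.7% had a 4SU antisense cluster, from the lowest to the highest quintile of RNAPII ChIP score. Within 500 bases the shares were 2.30% in the lowest quintile and 60.0% in the highest. For either PHC1 library they were 6.90%, 10.2%, 14.7%, 19.6% and 24.0%, and for 6SG 0.628%, 2.199%, 3.56%, 6.91% and 9.63%. In the lowest quintile the intervals of either PHC1 library (5.46 to 8.69%) and of 4SU (3.81 to 6.59%) overlapped, and in each of the 4 higher quintiles they did not. The PHC1 shares join 2 libraries, while 4SU is 1 library. With clusters required in both PHC1 libraries, the share in the lowest quintile was 3.56% (2.56 to 4.93%), below that of 4SU.

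**Figure D3:**
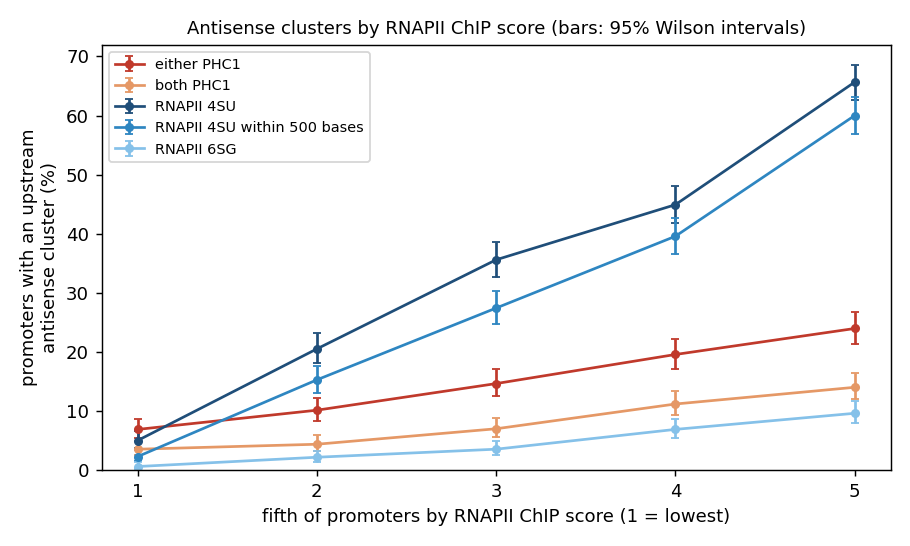
Share of promoters with an upstream antisense cluster (%) in 5 equal groups of promoters ranked by RNAPII ChIP score, with 95% Wilson intervals. All lines rise with the score, 4SU to 65.7% in the highest quintile and either PHC1 library to 24.0%.

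Promoters with antisense clusters had high scores for RNAPII and for H3K4me3, the mark of active promoters, and negative median scores, below the input, for H3K27me3 and EZH2. The median RNAPII score was 14.8 where both PHC1 libraries had clusters (384 promoters) and 15.6 where 4SU had them (1640), against 7.33 where no library had any (2843). H3K4me3 scores were 56.3 and 57.1, against 37.7. Within the lowest tertile of nuclear RNA the RNAPII medians were 10.7 and 11.2, against 3.59, and within the highest tertile 16.8 and 18.0, against 12.0. H3K27me3, the mark placed by PRC2, had medians of -2.32 and -2.16, against -1.58, and EZH2, its enzyme, -0.73 and -0.57, against -0.25. The authors' PHC1 ChIP score had medians of -0.16 and -0.06, against -0.08, and PHC1 dFCS 1.20 and 1.20, against 1.10. The 92 promoters with clusters in both PHC1 libraries and not in 4SU had lower medians, at 9.99 for RNAPII and 40.9 for H3K4me3.

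Promoter letters differed by a few percentage points between these groups, while the table of all RefSeq promoters had less G and C. Promoter sequences were found for 307 promoters with antisense clusters in both PHC1 libraries, 1385 with 4SU and 2668 with none, all with equal read and annotated strands. The same motifs (AATAAA for polyadenylation, GGTAAG for splicing and TATAAA for the TATA box) were searched on both strands of the 300-base windows; the first and the last can share bases. AATAAA on the antisense strand was in 3.26% of the PHC1 and 3.75% of the 4SU promoters, against 5.28% of those with none and 9.74% of all 27305 promoters in the table. GGTAAG on the antisense strand was in 2.93% and 2.09%, against 2.96% and 3.96%. TATAAA on the antisense strand was in 2.61% and 1.73%, against 2.77% and 5.90%. On the sense strand AATAAA was in 4.56% and 4.55%, against 5.77% and 10.2%, and GGTAAG in 5.54% and 3.90%, against 3.00% and 4.15%. These are counts of letters, not of sites in use. The median G and C content was 65.0% and 66.7%, against 65.7% and 58.3%, with 27 and 29 CG dinucleotides, against 26 and 14. T, the base that 4SU replaces, made up 17.6% and 16.8% of the antisense strand upstream, against 17.2% and 21.2%.

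The highest antisense values shared by PHC1 and RNAPII 4SU were in part beside small RNA genes. Values of single promoters are given as the summed coverage of their antisense clusters, per-million of the library's summed coverage, and are levels, not fold changes. POLDIP3, an adaptor that links splicing to translation, had antisense coverage of 153.3 and 136.9 in PHC1 and 379.0 in RNAPII 4SU, and was listed at 0 in 6SG. Its deepest PHC1 clusters were chr22:43011253-43011410 in replicate 1 and chr22:43011346-43011387 in replicate 2 (hg19, plus strand), centred 369.5 and 404.5 bases before the start. The deepest 4SU cluster, chr22:43011345-43011356, was centred 388.5 bases before it. The next gene upstream in RefSeq is RNU12, the U12 RNA of the minor spliceosome. POLDIP3 sense coverage in the first 2000 bases was only 0.98 and 1.00 in PHC1 and 4.96 in 4SU.

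SLC3A2, the heavy chain shared by several amino acid transporters, had 64.2 and 54.3 in PHC1 and 387.0 in 4SU, in 8, 14 and 18 antisense clusters. Its neighbour SNHG1, a host gene of small nucleolar RNAs on the opposite strand, has no Region. MED16, a subunit of the Mediator complex, had 23.2 and 29.8 in PHC1 and 39.4 in 4SU, next to the U6 gene RNU6-9, with 0 sense coverage in each of the 4 libraries. SACM1L, a phosphatase of phosphoinositides, had 17.4 and 22.3 in PHC1 and 17.3 in 4SU, next to a tRNA gene. Both PHC1 replicates called 1 cluster there at the same bases, chr3:45730479-45730556 (hg19, minus strand), 236.5 bases before the start, and 4SU called 2 that overlap it, the deeper one inside it. NCOA7, a coactivator of nuclear receptors, had 9.72 and 6.56 in PHC1 and 15.7 in 4SU, also next to a tRNA gene, with PHC1 clusters at chr6:126101396-126101464 (hg19, minus strand) in both replicates. U6 and tRNA genes are known to be read by RNA polymerase III. Of the 8 promoters, 4 (POLDIP3, MED16, SACM1L and NCOA7) thus had a small RNA gene as the next gene upstream, and whether their clusters are that RNA was not tested.

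PBRM1, a subunit of the PBAF chromatin remodeller, had 10.4 and 11.0 in PHC1, against 61.5 in 4SU and 16.8 in 6SG, and was the single one of the 8 besides ZC3H3 with a 6SG cluster. Its clusters lay far out, with the deepest PHC1 and 4SU clusters 1687.5, 1662.5 and 1653 bases before the start, and its neighbour is GNL3, a nucleolar GTPase gene on the opposite strand. ZNF461, a zinc finger gene, had 9.04 and 11.7 in PHC1 and 10.3 in 4SU, in 5, 7 and 8 clusters. ZC3H3 had 8.46 and 10.5 in PHC1, against 13.7 in 4SU and 110.4 in 6SG, the last in a single cluster.

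**Figure D4:**
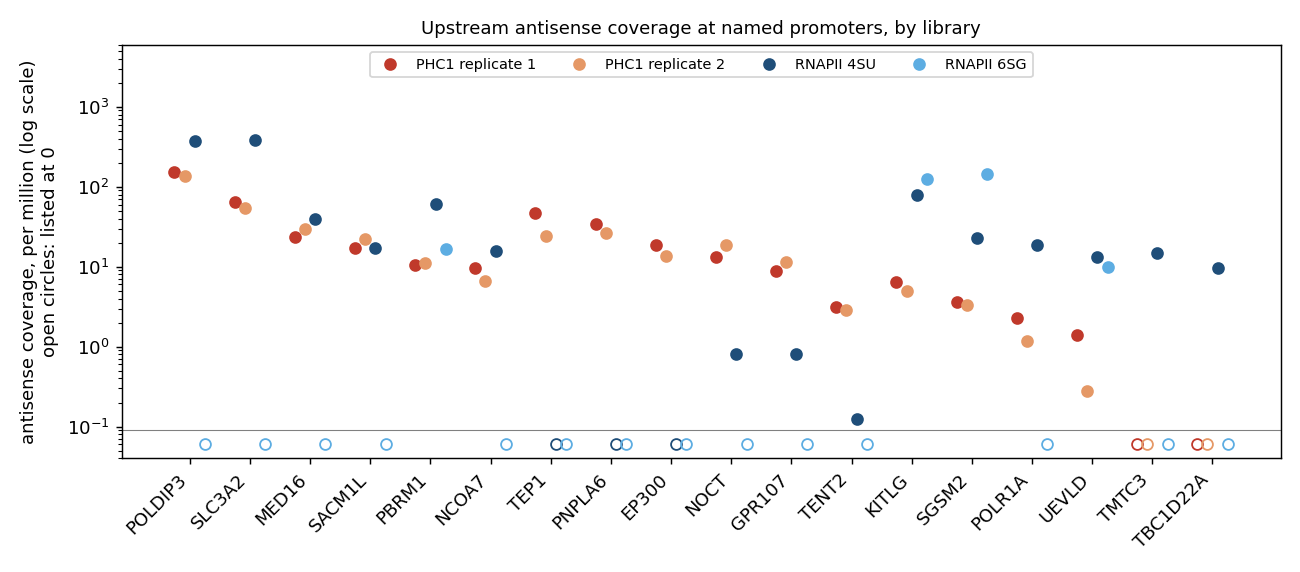
Upstream antisense coverage, per-million of the library's coverage (log scale), at 18 named promoters, 1 point per library, with open circles below the line for values listed at 0. The first 6 are shared by PHC1 and 4SU, TEP1, PNPLA6 and EP300 are listed at 0 in both RNAPII libraries, and TMTC3 and TBC1D22A are listed at 0 in both PHC1 libraries.

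Some antisense sites were found with PHC1 alone. TEP1, a protein associated with telomerase, had 46.4 and 24.6 in PHC1, and was listed at 0 in both RNAPII libraries. The 2 replicates placed its single cluster at chr14:20883146-20883196 and chr14:20883154-20883186 (hg19, plus strand), and the next gene upstream is RNA5SP382, annotated as a pseudogene. PNPLA6, a lysophospholipase, had 34.6 and 26.8 in PHC1 and 0 in RNAPII, from 1 cluster 38.5 bases before the start in each replicate. Of the 2000 bases upstream of PNPLA6 only 142 lay outside other Regions, so that its antisense window was short. EP300, a histone acetyltransferase and coactivator, had 18.8 and 13.6 in PHC1 and 0 in RNAPII on the antisense strand. The next gene upstream of EP300 is the miRNA gene MIR1281, which has no Region, and whether the clusters belong to it was not tested. The EP300 clusters were 17 and 14 bases long, at chr22:41488473-41488489 and chr22:41488473-41488486 (hg19, minus strand). EP300 sense coverage was above 0 in all 4 libraries, at 6.20 and 6.81 in PHC1, against 8.78 in 4SU and 17.9 in 6SG. IMPA1, an inositol monophosphatase, had 11.7 and 1.19 in PHC1 and 0 in RNAPII. These 4 were chosen as the highest of their kind, and each rests on 1 cluster per replicate.

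Other promoters had antisense RNA on RNAPII and none on PHC1. TMTC3, a mannosyltransferase of the endoplasmic reticulum, had 0 in both PHC1 libraries, against 14.7 in 4SU, in 6 clusters. Its neighbour CEP290, a centrosome gene on the opposite strand, has no Region. TBC1D22A had 0 in PHC1, against 9.68 in 4SU from 3 clusters, next to the annotated divergent transcript TBC1D22A-DT. GNAI3, an inhibitory G protein subunit, had 0 in PHC1 against 9.46 in 4SU from 4 clusters, and THAP12 0 against 8.40 from 10 clusters. None of the 4 had a 6SG antisense cluster. GNAI3 sense coverage was 1.01 and 0.913 in PHC1, against 10.5 in 4SU.

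**Figure D5:**
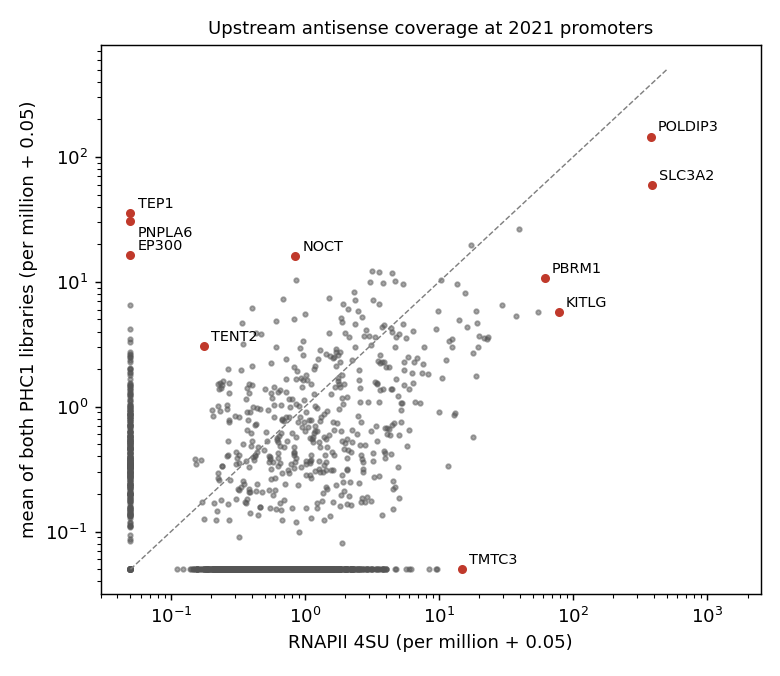
Upstream antisense coverage (per-million value plus 0.05) at 2021 promoters (log scales), mean of both PHC1 libraries against RNAPII 4SU, with named promoters in red and a dashed line of equal values. The row along the bottom and the column at the left are promoters listed at 0 in both PHC1 libraries and in 4SU, which together outnumber those with a value in both.

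Against both RNAPII libraries as the control pair, no antisense window passed the test. Of the 2021 windows with a cluster, 278 reached a per-million value of 1 in at least 2 libraries and were tested together with the sense coverage of the Regions. limma on log2 of the TMM-scaled value plus 0.5 called 0 higher and 0 lower at an adjusted p under 0.05 (0% of the 9569 features of the whole table in either direction). Before adjustment, 48 windows were higher and 42 lower (p under 0.05). A window could pass the filter through PHC1 alone more readily than through RNAPII alone: 174 reached that value in both PHC1 libraries and 120 in both RNAPII libraries, while 421 of the 570 that reached it in 4SU did so in neither PHC1 library. The windows tested are therefore no sample of all antisense promoters.

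With 4SU as the only control, limma called 68 windows higher and 33 lower of the 205 that passed. Over all 9275 features 32% were called higher and 25.8% lower, so the share of windows called higher was near the background and the share called lower was under it. The fit takes the spread of a single 4SU library from that of the 2 PHC1 libraries. Without the 4SU library, with 6SG alone, 124 of 181 windows were higher and 40 lower, where 57% of all 9020 features were called higher and 22.3% lower. Taken as antisense over sense at the same promoter, 0 of 278 were called in either direction (0% in both) against both RNAPII libraries, where 47 were higher and 14 lower before adjustment (p under 0.05). With 4SU alone, 52 (25.4%) were higher and 12 (5.85%) lower of 205. With 6SG alone, 89 (49.2%) were higher and 32 (17.7%) lower of 181. The 4SU sense values also chose the promoters, so nothing is read from these counts.

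A shorter window and no filter were also run with 4SU alone. Within 500 bases, 17 of 45 windows were higher and 10 lower, where 32.4% of all 9115 features were called higher and 26.2% lower. For antisense over sense there, 14 (31.1%) were higher and 1 (2.22%) lower. With no filter, 4 of 1989 windows were higher and 1251 lower, where 1.2% of all 13990 features were called higher and 13.8% lower. Many of those windows were at 0 in both PHC1 libraries and so had no spread. For antisense over sense without a filter, 179 (9%) were higher and 183 (9.2%) lower.

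The promoters with the highest PHC1 values over 4SU, among tested windows with a value in all 3 of these libraries, were NOCT, GPR107, TENT2, ZNF346, ZNF714 and TECPR1. They were chosen by this ratio, so the values describe them. NOCT, a circadian phosphatase of NADP cofactors, had 13.2 and 18.7 in PHC1, against 0.799 in 4SU and 0 in 6SG. Its log2 fold was 4.67 ± 0.99 against both controls (SE). RefSeq gives NOCT and ZNF714 the other strand. In that annotation these clusters are on the gene's own strand, at or past the gene's end, and not upstream antisense. GPR107, a membrane protein of the Golgi, had 8.87 and 11.6 in PHC1, against 0.807 in 4SU and 0 in 6SG, a log2 fold of 4.05 ± 0.97. TENT2, a poly(A) polymerase, had 3.11 and 2.88 in PHC1, against 0.125 in 4SU and 0 in 6SG, a log2 fold of 2.90 ± 0.54. On the sense strand TENT2 ran the other way against 4SU, with 2.81 and 4.36 in PHC1 and 28.7 in 4SU. The 6SG sense value of 3.53 lay between those of PHC1. The other 3 had PHC1 values between 3.82 and 8.50 and 4SU values between 0.289 and 0.640. In 6SG TECPR1 had 12.9, above both of its PHC1 values, while ZNF346 and ZNF714 had 0.

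The lowest values of PHC1 over 4SU, likewise chosen by this ratio, were found at KITLG, UEVLD, ZRANB3, ZNF567, POLR1A and BNIP3L. KITLG, the ligand of the KIT receptor, had 6.43 and 4.93 in PHC1, against 77.8 in 4SU and 123.9 in 6SG. All 4 libraries called 1 cluster at nearly the same bases, chr12:88975525-88975551 in 4SU (hg19, plus strand), 1288 bases before the start. Its log2 fold was -3.49 ± 0.53 (SE). UEVLD had 1.39 and 0.279 in PHC1, against 13.2 in 4SU and 9.92 in 6SG (log2 fold -2.85 ± 1.06). POLR1A, the largest subunit of RNA polymerase I, had 2.25 and 1.17 in PHC1, against 18.9 in 4SU and 0 in 6SG. Its neighbour PTCD3 is on the opposite strand and has no Region. The other highest 6SG values were at TTC41P, with 7.78 and 3.51 in PHC1, against 54.5 in 4SU and 332.0 in 6SG, and at SGSM2, with 3.58 and 3.29, against 22.6 and 143.4.

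ZNF461 and ZNF567 are neighbours on opposite strands, each with a Region, so the window of each lies between them. ZNF567 had 1.08 and 0.632 in PHC1, against 9.88 in 4SU and 0 in 6SG. ZNF461 had 9.04 and 11.7, against 10.3 and 0. In PHC1 the ZNF461 window was thus the higher of the pair in both replicates, while in 4SU the windows had nearly equal values; no test was made of this. Sense coverage was alike at both, between 17.6 and 22.4 in PHC1 and at 10.9 and 11.9 in 4SU.

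Genes of RNA turnover and of transcription were looked at as lists. Of 4 eligible genes whose upstream transcripts had been described before, RBM39 (a splicing factor, 1.74 in 4SU) and IFNAR1 (an interferon receptor, 0.630 in 4SU) had 4SU antisense clusters, and none had a PHC1 cluster. Of 19 factors of nuclear RNA turnover, capping and 3′ end formation, 4 had antisense clusters in each PHC1 replicate (21.1%), against 9 in 4SU (47.4%) and 2 in 6SG. Of all eligible promoters the shares were 10.4% and 9.99% for PHC1, against 31.0% for 4SU, and the median value was 0 in every library, as for the list. The exosome nuclease gene EXOSC10 had 0.795 and 2.17 in PHC1, against 0.334 in 4SU. The Integrator subunit gene INTS1 had 2.14 and 1.61 in PHC1, against 0.825 in 4SU. ZC3H18, which links the cap to the exosome, had 0 and 1.20, against 1.60 in 4SU and 5.16 in 6SG, beside its annotated divergent transcript ZC3H18-DT. INTS1 and ZC3H18 were the 2 members tested, and neither passed against both controls or against 4SU alone.

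Of 14 pausing and elongation factors 3 had antisense clusters in each PHC1 replicate, against 7 in 4SU. SUPT5H, a subunit of the pausing factor DSIF, had 2.58 and 2.34 in PHC1, against 5.84 in 4SU and 0 in 6SG, and was not called against both controls or against 4SU alone. Of 18 Polycomb members 1 had antisense clusters in PHC1, against 7 in 4SU. That one was EZH2, the H3K27 methyltransferase, with 1.13 and 1.32 in PHC1, against 1.13 in 4SU and 0 in 6SG. SUZ12, KDM2B and MTF2 had 1.51, 1.95 and 1.21 in 4SU and 0 in both PHC1 libraries.

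Of 15 stress and immediate early genes 1 had antisense clusters in PHC1, against 3 in 4SU. MDM2, the ligase of p53, had 1.54 and 0.416 in PHC1 and 0 in both RNAPII libraries, while EIF2AK3, HSPA4 and SESN2 had between 0.0990 and 0.594 in 4SU and 0 in PHC1. Of 17 splicing factors 4 and 3 had antisense clusters in PHC1, against 7 in 4SU and 2 in 6SG. DHX15, a spliceosomal helicase, had 0.959 and 1.50 in PHC1, against 0.223 in 4SU. SF3B1, the branch point protein, had 0 in PHC1, against 0.586 in 4SU and 7.00 in 6SG. No member of these 2 lists reached the level needed for the test. The lists are small, and nothing particular to any of them is read from these counts.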

How the data were processed

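PAR-CLIP clusters were deposited by the authors per library as hg19 intervals with a strand and a mean read coverage per base. Bowtie 0.12.7, SAMtools 0.1.19 and R are named per the submitters' processing notes, and the cluster caller is not given in the sources used here. The deposited ChIP score per Region is the authors' scaled signal with the input subtracted (Bowtie2 2.2.3, per the submitters' processing notes). Nuclear RNA was deposited as read counts per gene (TopHat2 2.0.11, per the same notes).

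Members, gene lists and named promoters were chosen with earlier results of these data known. A cluster was placed by its midpoint. Its coverage times its length, summed per promoter and divided by the library's total, gave the per-million values; the cluster total is not the sequencing depth, which is unknown. Named promoters were the highest shared, highest and lowest in PHC1 over 4SU, highest in 1 protein and at 0 in the other, highest in 6SG, and up to 4 per list. Of the 8 shared ones, sequences are shown for 4, and some items the rules would name are not reported here.

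limma 3.58.1 (trend, robust) with edgeR 4.0.16 for TMM factors in R 4.3.3 was fitted on log2 of the per-million value plus 0.5, for features at 1 or more in at least 2 libraries, with Benjamini-Hochberg adjustment over the whole table. The fold change is on that log2 scale and understates changes of low values. The scripts were tested on simulated data. Intervals are 95% Wilson intervals and single values per library were compared with exact permutation tests. Overlaps used bedtools 2.31.1. In the files 1 value column was not used.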

Additional observations from a re-analysis of the deposited data

How the results depend on the processing

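No paired analysis was possible because the PHC1 and RNAPII libraries share fewer than 2 replicate numbers. Coverage within called clusters is all that was available, so RNA below the caller's limit is not seen, and 6SG had the least coverage in called clusters (112 Mb). A single 4SU and a single 6SG library stand for RNAPII.

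The count of windows called was 0 in both directions under another scaling, pseudocounts of 0.1 and 2, no filter, and windows of 500, 1000 and 5000 bases with both RNAPII libraries. Leaving out 1 library gave between 0 and 124 windows higher and between 0 and 40 lower, and for antisense over sense between 0 and 89 higher and between 0 and 32 lower. Every call came from leaving out an RNAPII library. With 4SU alone there were 68 higher and 33 lower of 205, and for antisense over sense 52 and 12. In 500 bases with 4SU alone the counts were 17 and 10 of 45 (all features 32.4% and 26.2%), and 14 and 1 of 45. With 4SU alone and no filter they were 4 and 1251 of 1989 (all features 1.2% and 13.8%), and 179 and 183 of 1989.

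With 4SU alone, filtered or not, the log2 fold turned to -2.17 at SLC3A2, -0.0499 at MED16, -0.63 at SUPT5H, -0.85 at POLDIP3 and -0.42 at NCOA7, all listed at 0 in 6SG. In 500 bases with 4SU alone it was -0.57, -0.0419 and -0.83 at SLC3A2, MED16 and POLDIP3. A pseudocount of 0.1 turned ZNF567 to 0.27 and POLR1A to 0.71. A window of 5000 bases turned ZC3H18 to 0.25, ZNF567 to 1.96, ZRANB3 to 0.72, PBRM1 to 0.0383 and EZH2 to -0.51. Leaving out 1 library, the highest values of those 5 genes came without 4SU, at 7.07 for SLC3A2, 5.92 for MED16, 2.71 for SUPT5H, 8.36 for POLDIP3 and 4.26 for NCOA7, and the lowest were those with 4SU alone. POLR1A ranged between -2.69 and 2.25, with 0.33 without PHC1 replicate 2, and TECPR1 between -0.30 without 4SU and 3.11 without 6SG. The cause was not tested.

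The difference in antisense share by coverage turned to 3.96 points in 1000 bases and 4.88 in 500 bases, was -2.69 in 5000 bases, and leaving out 1 library gave between -3.41 and 2.98, with 0.314 without PHC1 replicate 1. The share of promoters (PHC1 replicates 1 and 2, then 4SU and 6SG) was 3.21%, 2.44%, 26.2% and 2.71% in 500 bases, 5.92%, 5.18%, 29.1% and 3.23% in 1000, and 18.5%, 18.1%, 33.3% and 5.66% in 5000. It was 8.62%, 8.21%, 27.7% and 3.50% for Regions of 50 kb or more. With promoters found to have an opposite neighbour lacking a Region left out, it was 9.07%, 8.52%, 28.0% and 3.53%. With all upstream bases free it was 11.8%, 11.3% and 34.3% for PHC1 and 4SU. For 4SU it was 33.1% with 10 clusters or more and 32.3% with equal strands, and with coverage of 10 or more it was 9.20% for PHC1 replicate 2 and 29.4% for 4SU.

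With an overlap of at least 0.5 of the cluster, 50.2% and 56.5% of PHC1 clusters recurred between replicates, 24.1% and 24.2% met 4SU, 8.29% and 7.09% of 4SU clusters met PHC1, and 33.6% of 6SG clusters met 4SU. The ratio of near to far density kept PHC1 under 1 and RNAPII over 5 in all 7 alternatives. It moved for 4SU and 6SG to 7.59 and 5.77 against 1000 to 2000 bases, and to 12.8 and 11.6 in the top quintile. With promoters found to have such a neighbour left out, it moved to 13.1 and 10.4. It was 9.81 for 6SG at 50 kb and 8.75 for 4SU at coverage 20. The H3K27me3 median was -2.16 where 4SU had clusters.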
